A study of Mus musculus with 12 samples.

Results

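The genes of the Nrf2 antioxidant response were followed through liver tissue, freshly isolated liver cells and cultured hepatocytes of the same mice. The set held 10 of the 32285 genes counted, given as a named list: Nfe2l2, which encodes the transcription factor Nrf2, and Nqo1, Gclc, Gclm, Hmox1, Txnrd1, Srxn1, Slc7a11, G6pdx and Gsr. Together they took 837857 of the 350593472 unique molecular identifiers (UMIs, each counting 1 captured RNA molecule) in 53467 nuclei.

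Single-nucleus RNA sequencing was performed on 24 samples from 8 wild-type mice, with 3 samples from each mouse. Liver was a piece of the median lobe, frozen after the organ had been flushed with a calcium-free buffer. Cell Suspension was a pellet of hepatocyte-enriched cells frozen after collagenase digestion and slow centrifugation. Primary Hepatocytes were the same cells after 24 h on collagen in MEM-199 medium with serum, dexamethasone and insulin, detached with trypsin before freezing. The mice were chow-fed males of 10 to 12 weeks, given as C57BL/6NTac in the study's methods and as C57BL6J in the deposited labels. No group carried a deletion, a transgene or a drug beyond avertin anaesthesia and these media. The samples were tagged with antibody-bound barcodes and mixed in 6 pools of 4, of which 2 pools held no Primary Hepatocytes and 2 held no Liver, so pool and sample type are partly tied.

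Nrf2 is held in the cytoplasm by Keap1, an adaptor that hands it to the Cul3 ubiquitin ligase for degradation. Oxidants and electrophiles modify Keap1, and Nrf2 then reaches the nucleus, pairs with a small Maf protein and binds antioxidant response elements in front of its target genes. In liver the targets are known for making glutathione, reducing quinones, breaking down heme and supplying NADPH. Because Nrf2 is mainly controlled through protein stability, the RNA of Nfe2l2 need not follow the RNA of its targets.

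The letters of this binding site were looked for in the promoters, since the sequence is what the listed genes are held to share. RefSeq promoters of GRCm38.p6, reaching from 250 bases before to 50 after each start, were at hand for 7 of the 10 genes, and Gclc, Hmox1 and Gsr were named only. The core was searched on both strands as TGACNNNGC, found in 12.4% of 32851 promoters, and as TGAGNNNGC, found in 17.6%. Either form was in 27.8% of promoters, and the AP-1 site TGANTCA, which can overlap the second form, in 7.81%. At least 1 core was found for 6 of the 7 genes, and for 30.8% of all 27025 genes with a promoter. The matches follow with the core in capitals, each read in the direction of its TGA letters.
Nfe2l2, core starting 240 bases before the start: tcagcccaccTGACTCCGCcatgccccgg
Srxn1, core 158 bases before the start: ccagagaggaTGAGTCGGCtctcagtaga
Srxn1, core 45 bases before the start: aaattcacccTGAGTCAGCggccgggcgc
Srxn1, core 28 bases after the start: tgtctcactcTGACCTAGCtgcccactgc
Slc7a11, core 97 bases before the start: aactccagctTGAGAAAGCgccaacatta
Gclm, core 134 bases before the start: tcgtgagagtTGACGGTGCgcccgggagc
Txnrd1, core 92 bases before the second of 3 listed starts: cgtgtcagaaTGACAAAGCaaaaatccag
G6pdx, core 57 bases before the start: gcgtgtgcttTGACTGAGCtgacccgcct

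The printed stretches lie at chr2:75704885-75704913 (minus strand) for Nfe2l2, chr3:50443692-50443720 (plus strand) for Slc7a11, chr3:122245413-122245441 (minus strand) for Gclm, chr10:82859104-82859132 (minus strand) for Txnrd1 and chrX:74428919-74428947 (plus strand) for G6pdx. The 3 Srxn1 stretches lie at chr2:152105356-152105384 (minus strand), chr2:152105469-152105497 (plus strand) and chr2:152105542-152105570 (minus strand). Among the 7 members with a promoter at hand, Srxn1 had the most cores. Its core 45 bases before the start overlaps an AP-1 match, and a second AP-1 match starts 102 bases before the start. The single Nqo1 promoter window, which is not where every enhancer of a gene lies, held no core. These matches are letters in a window and no binding was measured.

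Nuclei were taken by the deposited cell type annotation and summed per sample. The annotation keeps nearly all cultured nuclei in 1 class of its own, so each of its clusters was read as hepatocyte, endothelial or stellate by the marker list with the highest level. Hepatocyte cluster 8 of that class, with 2321 nuclei and a median of 1608 UMIs, also held 705 Cell Suspension and 166 Liver nuclei, and without it 9, 10 and 2 members were called in the comparisons below in place of 9, 9 and 2. Hepatocyte nuclei numbered 821 to 2600 per Liver sample, 693 to 2652 per Cell Suspension sample and 1863 to 2379 per Primary Hepatocytes sample, with 2104087 to 29023569 UMIs in a sum. The 8 genes of the hepatocyte marker list, among them Alb, Apob, Apoa1, Cps1 and Fgb, together reached 10343 to 17879 CPM (UMIs of a gene scaled to the same library total in every sample) in Liver, 13341 to 18778 in Cell Suspension and 2221 to 6575 in Primary Hepatocytes, lower in the cultured nuclei than in the others. Other markers were higher there: the stellate list summed to 17.4 to 44.0 CPM in Liver and 48.6 to 619 in Primary Hepatocytes, and the endothelial list to 33.3 to 53.2 and 118 to 174. The mitochondrial share had a median of 0.17% of UMIs in Liver and 0.37% in Primary Hepatocytes, and the part of these in the members' changes was not tested. Levels below are CPM scaled by the trimmed mean of M-values (TMM) unless called unscaled. A gene was called when its adjusted p in edgeR's quasi-likelihood test was below 0.05 over all genes tested.

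In hepatocyte nuclei, 9 of the 10 members were higher in Primary Hepatocytes than in Liver. Heme oxygenase Hmox1 rose most, by 51.0-fold, followed by Srxn1 at 17.3-fold, the cystine carrier Slc7a11 at 11.3-fold and Gclc at 7.71-fold. Nfe2l2 itself was not called. Of all 26778 genes tested, 53.7% were called, 27.4% as higher and 26.3% as lower. The median log2 fold change was 1.91 over the members and 0.10 over all genes. For 7 members the Liver and Primary Hepatocytes samples did not overlap, which held for 30.3% of all genes. With the pool as a covariate the log2 fold changes were 4.49 in place of 5.67 for Hmox1, 3.20 in place of 4.12 for Srxn1, 2.07 in place of 2.95 for Gclc and 3.51 in place of 3.50 for Slc7a11, all still called, and Slc7a11 then stood above Srxn1.

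The level of Nfe2l2 overlapped between the sample types. It was 115 CPM at the lowest, 189 at the median and 236 at the highest in Liver, 110, 159 and 235 in Cell Suspension, and 145, 222 and 262 in Primary Hepatocytes. In every comparison the range of 1 group ran into that of the other. The log2 fold change was 0.24 (SE 0.17, adjusted p = 0.235) in Primary Hepatocytes against Liver and -0.13 (SE 0.17, adjusted p = 0.652) in Cell Suspension against Liver. Against Cell Suspension, Primary Hepatocytes were at 0.37 (SE 0.17, adjusted p = 0.0666), and at 0.41 with the mouse as a block (adjusted p = 0.0284), which is past the threshold. Without mouse 4, the mouse with the highest Nfe2l2 in Liver and Cell Suspension, the change against Liver was 0.43 (adjusted p = 0.0262) and that against Cell Suspension 0.56 (adjusted p = 0.00478). Both were also called with sums thinned to the lowest total (0.40, adjusted p = 0.0384, and 0.47, adjusted p = 0.0158) and in nuclei at or above the median demultiplexing margin (0.43, adjusted p = 0.0333, and 0.58, adjusted p = 0.00525), and that against Cell Suspension with edgeR's own expression filter (0.37, adjusted p = 0.0484). Compared within pools, the picture was less uniform. In log2(mean CPM + 1), culture differed from Liver by -0.63 in 1 of the 2 pools that held both and by 1.02 in the other. Each of these 2 pools held 1 Liver sample. The first held that of mouse 4, with the highest Nfe2l2 in Liver (236 CPM), and the other that of mouse 5, with the lowest (115 CPM). From Cell Suspension, culture differed by 0.0029 to 0.29 in the 4 pools that held both.

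**Figure D1:**
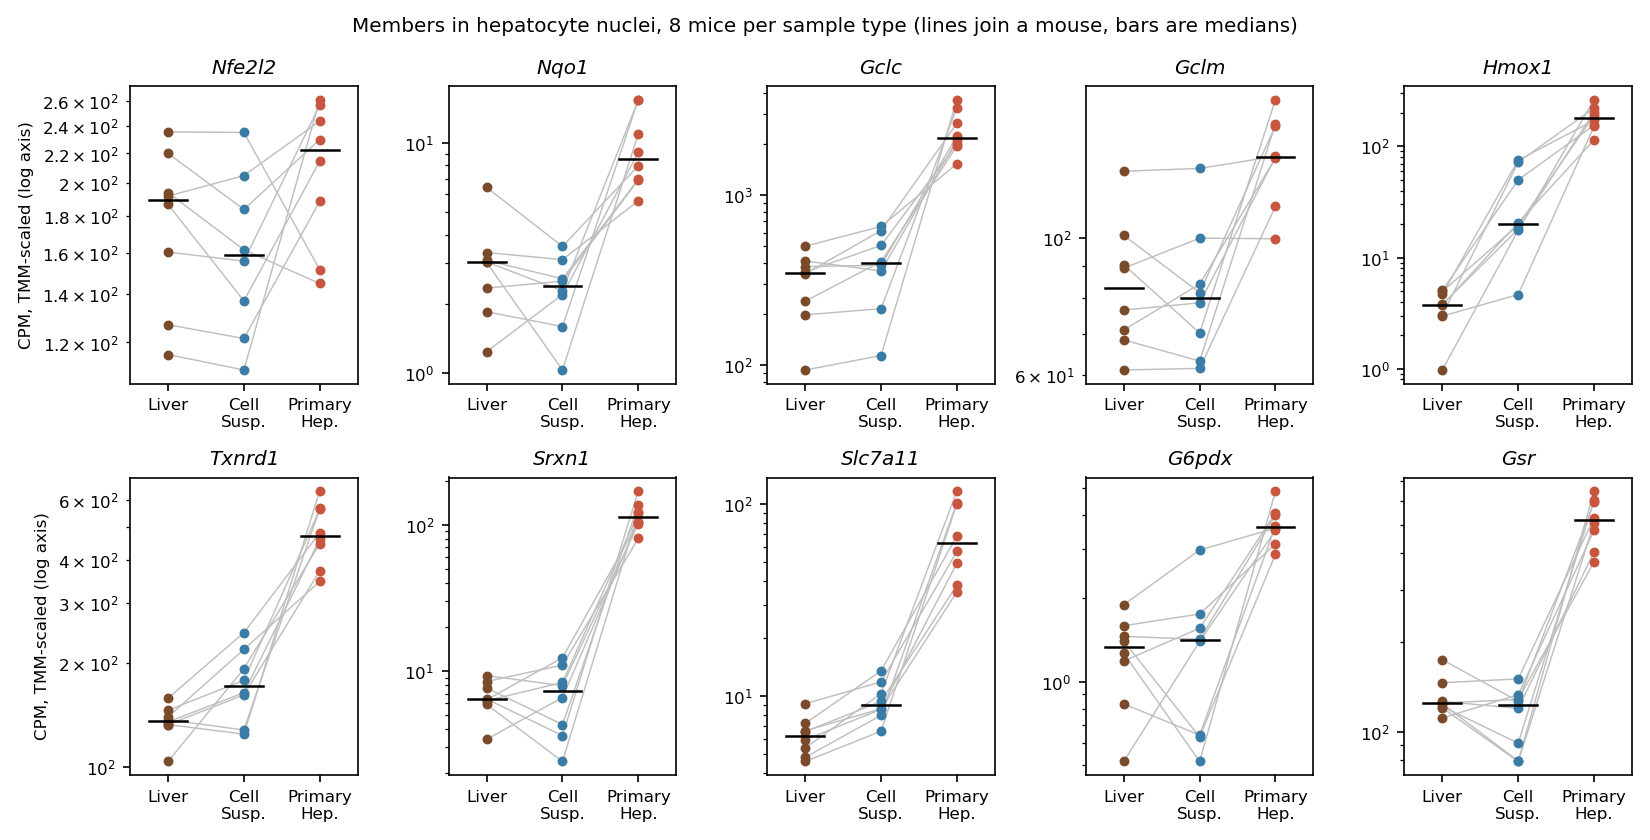
Level of each member in hepatocyte nuclei, in TMM-scaled CPM on a log axis, for the 8 Liver, 8 Cell Suspension and 8 Primary Hepatocytes samples; points are samples, grey lines join the samples of a mouse and bars are medians. Hmox1 is the member whose points step up between Liver and Cell Suspension and again in Primary Hepatocytes, while the points of Nfe2l2 overlap in all 3 sample types.

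Glutathione is made from cystine, glutamate and glycine, and the members of this branch moved to unequal degrees. Slc7a11, the transporter that brings cystine into the cell, was at 4.59 CPM at the lowest, 6.25 at the median and 9.15 at the highest in Liver, at 6.59, 9.01 and 13.6 in Cell Suspension, and at 34.95, 62.4 and 117 in Primary Hepatocytes. All 8 cultured samples lay above all 16 others. The log2 fold change against Liver was 3.50 (SE 0.23, adjusted p = 3.6e-14) and that against Cell Suspension 2.89 (SE 0.23, adjusted p = 3.7e-12).

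Gclc and Gclm encode the catalytic and the regulatory subunit of glutamate-cysteine ligase, the first enzyme of glutathione synthesis. Gclc was at 93.6 CPM at the lowest, 349 at the median and 501 at the highest in Liver, at 114, 396 and 654 in Cell Suspension, and at 1531, 2173 and 3654 in Primary Hepatocytes, with no overlap between cultured and other samples. Mouse 6 gave the lowest Gclc level of both Liver and Cell Suspension and the highest of Primary Hepatocytes. Its Liver and Cell Suspension samples were in pool 6 and its cultured sample in pool 3. The cultured samples of pool 3, at 2646, 3278 and 3654 CPM, had the highest Gclc levels, so mouse and pool cannot be told apart here. Gclm was at 61.1, 82.9 and 128 CPM in Liver, 61.5, 80.1 and 130 in Cell Suspension and 99.8, 136 and 168 in Primary Hepatocytes, and its groups overlapped. The partners thus differed in size of change: Gclc had a log2 fold change against Liver of 2.95 (SE 0.31, adjusted p = 1.2e-09) and Gclm of 0.67 (SE 0.15, adjusted p = 0.000433). With the pool as a covariate the Gclm value was 0.35 (adjusted p = 0.125) and was no longer called.

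Gsr, glutathione reductase, returns oxidised glutathione to its reduced form with NADPH. Its level was 111 CPM at the lowest, 124 at the median and 175 at the highest in Liver, 79.3, 123 and 151 in Cell Suspension, and 374, 517 and 649 in Primary Hepatocytes. The cultured samples stood apart from both other groups, with log2 fold changes of 1.98 (SE 0.15, adjusted p = 7.0e-13) against Liver and 2.18 (SE 0.15, adjusted p = 1.2e-13) against Cell Suspension.

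Txnrd1 and Srxn1 belong to the thioredoxin and peroxiredoxin branch. Txnrd1, cytosolic thioredoxin reductase, was at 104 CPM at the lowest, 136 at the median and 158 at the highest in Liver, at 124, 171 and 246 in Cell Suspension, and at 346, 470 and 635 in Primary Hepatocytes. Srxn1, sulfiredoxin, which repairs over-oxidised peroxiredoxins, was at 3.41, 6.40 and 9.29 CPM in Liver, 2.41, 7.26 and 12.3 in Cell Suspension and 80.8, 112 and 170 in Primary Hepatocytes. Neither gene's cultured samples overlapped the others. Their log2 fold changes against Liver were 1.83 (SE 0.15, adjusted p = 3.0e-12) for Txnrd1 and 4.12 (SE 0.24, adjusted p = 1.8e-15) for Srxn1.

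Nqo1, a quinone reductase used as a textbook Nrf2 target, was sparse in hepatocyte nuclei, with 12 to 55 UMIs per Liver sample, 2 to 40 per Cell Suspension sample and 91 to 384 per Primary Hepatocytes sample. Its level was 1.24 CPM at the lowest, 3.03 at the median and 6.41 at the highest in Liver, 1.03, 2.39 and 3.55 in Cell Suspension, and 5.61, 8.53 and 15.4 in Primary Hepatocytes. The cultured samples lay above every Cell Suspension sample and overlapped Liver through mouse 2. The log2 fold change was 1.73 (SE 0.24, adjusted p = 3.1e-07) against Liver and 1.98 (SE 0.27, adjusted p = 1.7e-07) against Cell Suspension.

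G6pdx, glucose-6-phosphate dehydrogenase, opens the pentose phosphate pathway that supplies NADPH. It was the sparsest member, with 5 to 38 UMIs per Liver sample, 1 to 20 per Cell Suspension sample and 47 to 100 per Primary Hepatocytes sample. Its level was 0.52 CPM at the lowest, 1.33 at the median and 1.89 at the highest in Liver, 0.52, 1.41 and 2.98 in Cell Suspension, and 2.88, 3.61 and 4.86 in Primary Hepatocytes. The log2 fold change was 1.51 (SE 0.23, adjusted p = 9.4e-07) against Liver, where the groups did not overlap, and 1.40 (SE 0.25, adjusted p = 2.0e-05) against Cell Suspension, where they did. Unspliced UMIs of G6pdx numbered 0 of 809 in hepatocyte nuclei, although its gene spans 19712 bases, and G6pdx overlaps Ikbkg on the opposite strand. Its retrogene G6pd2 held 1 UMI in each sample type.

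Hmox1, which opens the heme ring and releases iron, carbon monoxide and biliverdin, differed between all 3 sample types. It was at 0.97 CPM at the lowest, 3.75 at the median and 5.05 at the highest in Liver, at 4.65, 20.1 and 75.1 in Cell Suspension, and at 114, 181 and 264 in Primary Hepatocytes. Liver and Cell Suspension overlapped only through the lowest suspension sample, that of mouse 7, and the cultured samples lay above all others. The log2 fold change was 5.67 (SE 0.40, adjusted p = 2.6e-13) in Primary Hepatocytes against Liver, 2.37 (SE 0.34, adjusted p = 5.8e-07) against Cell Suspension and 3.30 (SE 0.37, adjusted p = 7.0e-08) in Cell Suspension against Liver.

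**Figure D2:**
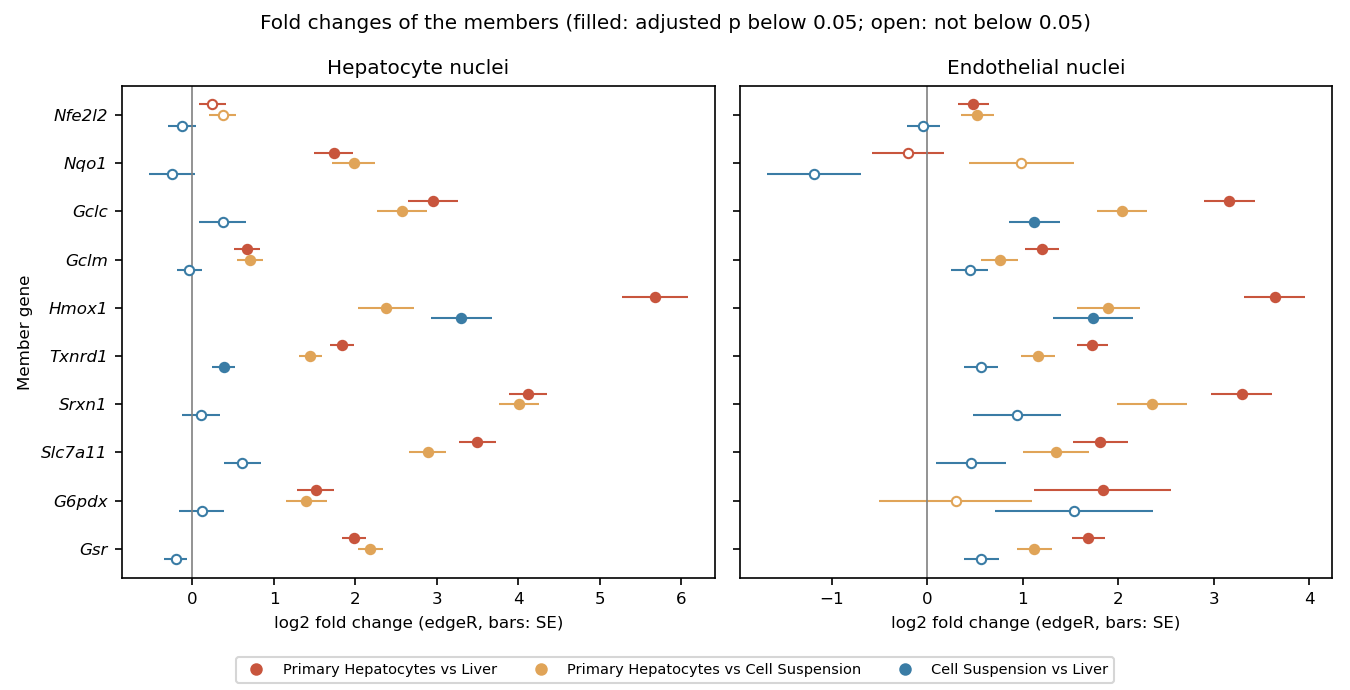
Log2 fold change of each member (horizontal axis, with SE) in hepatocyte nuclei (left) and endothelial nuclei (right), with colours for the 3 comparisons and filled points for an adjusted p below 0.05. In hepatocyte nuclei 9 of 10 points are filled in each comparison with Primary Hepatocytes and 2 of 10 in Cell Suspension against Liver.

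Culture was also compared with the freshly isolated cells it was plated from. In Primary Hepatocytes against Cell Suspension, 9 members were called, all higher, the same 9 as against Liver, and the 2 comparisons share the cultured samples. Over all genes 50.4% were called and 26.9% were higher. The samples did not overlap for 7 members and for 26.6% of all genes. The median log2 fold change of the members was 2.08 beside 0.02 for all genes. Scaling by total UMIs alone moved the median of all genes from 0.10 to 0.66 against Liver and from 0.02 to 0.71 against Cell Suspension, and the share of calls that were higher from 51.0% to 75.7% and from 53.4% to 80.2%. Under it Nfe2l2 was at 0.78 (adjusted p = 0.000132) and 1.06 (adjusted p = 2.0e-06).

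In Cell Suspension against Liver 2 members were called, both higher: Hmox1 by 9.83-fold and Txnrd1 by 1.31-fold. Over all genes 22.3% were called and 8.15% were higher. No member separated the samples completely, which 5.64% of genes did. The share of calls that were higher was 36.5% over all genes, 47.8% with size factors from relative log expression (RLE) and 19.9% with total UMIs alone. The Txnrd1 change, a log2 fold change of 0.39 (SE 0.14, adjusted p = 0.0488), sat at the threshold and was not called with the mouse as a block (adjusted p = 0.0531), with the pool as a covariate (0.22, adjusted p = 0.325) or without any single one of mice 1 to 6 (adjusted p = 0.0693 to 0.152). Slc7a11 was at 0.61 (SE 0.23, adjusted p = 0.0541) and was called with the mouse as a block (0.63, adjusted p = 0.0378). Gsr was at -0.21 (SE 0.14, adjusted p = 0.348) and with the pool as a covariate at -0.48 (adjusted p = 0.0115). The other 6 members lay between -0.25 and 0.37, with adjusted p of at least 0.401. Of these, Srxn1 was at 0.11 and turned to -0.61 (adjusted p = 0.0556) with the pool as a covariate and to -1.13 (adjusted p = 0.0950) in the pools without Primary Hepatocytes, and Gclc at 0.37 turned to -0.19 (adjusted p = 0.705) and -0.36 (adjusted p = 0.704). Within the 4 pools that held both types, each of the 6 members was above 0 in 1 pool only, G6pdx lying at -0.55 to 0.23 in log2(mean CPM + 1). In each of these pools at least 1 of the 2 types had only 1 sample.

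The Hmox1 level in Cell Suspension differed between pools. Empty barcodes, those with under 100 UMIs, hold free RNA of the pool. They carried Hmox1 at 10.2 and 16.4 unscaled CPM in the 2 pools without Primary Hepatocytes and at 19.1 to 178 in the 4 pools with them. The suspension samples in the pools without cultured cells had the lowest Hmox1 levels, 4.65 CPM in mouse 7 and 17.6 in mouse 6, and the others lay between 18.0 and 75.1. Within the 4 pools that held both types, Cell Suspension exceeded Liver by 0.24 to 3.41 in log2(mean CPM + 1). With only the pools without Primary Hepatocytes the log2 fold change was 1.897 (SE 0.49, adjusted p = 0.0418) in place of 3.30, and with the pool as a covariate 2.42 (SE 0.40, adjusted p = 9.1e-05). In unscaled CPM, hepatocyte Hmox1 had a median of 17.8 in Cell Suspension beside 53.7 in the empty barcodes of the same pools. In Liver it had a median of 3.20 beside 16.4. No sample of either type exceeded the empty barcodes of its own pool. The part of free RNA in the Hmox1 difference was not tested.

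For the other comparisons with culture, the values within pools kept their direction for 9 members. In the 2 pools that held Liver and Primary Hepatocytes, every member except Nfe2l2 was higher in culture in both. Each of these 2 pools held 1 Liver sample. Hmox1 was 4.69 and 4.91 and Srxn1 3.32 and 3.44 higher in log2(mean CPM + 1). Nfe2l2 was higher in 1 of these pools and lower in the other. In the 4 pools with Cell Suspension and Primary Hepatocytes all 10 members were above 0, Nfe2l2 by 0.0029 at the least.

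Nuclei hold both spliced RNA and unspliced precursors, and the deposited counts keep them apart. The unspliced share was taken over spliced plus unspliced UMIs of a member in each sample with at least 20 of them. It is taken from the same UMIs that the sums above add up. Over all genes it averaged 80.5% ± 1.74 in Liver, 72.8% ± 3.02 in Cell Suspension and, in culture, 70.9% ± 1.58 (SD, n = 8). Of the members, 9 could be tested, giving 27 tests by the exact two-sided permutation test over samples, for which the smallest p with 8 against 8 is 0.0001554, and p was adjusted over all 14248, 12336 or 12524 genes tested. Against Liver the share was called lower for 49.4% and higher for 5.25% of genes in Primary Hepatocytes and lower for 50.9% and higher for 1.85% in Cell Suspension, and between these, 12.7% of genes were higher and 10% lower in Primary Hepatocytes. The members had 3 lower and 0 higher in Primary Hepatocytes against Liver, 4 lower and 1 higher in Cell Suspension against Liver, and 2 higher and 2 lower in Primary Hepatocytes against Cell Suspension. Paired by mouse, in an exact sign-flip permutation test over up to 8 pairs, Primary Hepatocytes against Liver had 4 members lower, with Srxn1 added (adjusted p = 0.0222), and Cell Suspension against Liver 3 lower, Nfe2l2, Gclm and Gsr (adjusted p = 0.0262), beside 5659 genes lower and 434 higher of 13993 and 4969 lower and 136 higher of 12348. Of the unpaired calls that the pairing did not keep, Hmox1 was higher in Cell Suspension than in Liver in 6 of 6 pairs (exact p = 0.03125, the smallest that 6 pairs allow, adjusted p = 0.0637) and Srxn1 was higher in 1 of 6 (exact p = 0.0625, adjusted p = 0.112). Between Primary Hepatocytes and Cell Suspension the pairs gave 0 calls over all 12233 genes, with 14.7% higher and 12.1% lower at an unadjusted p below 0.05, among them Nfe2l2 and Gclc higher and Hmox1, Slc7a11 and Gsr lower. Genes at the smallest exact p of 8 pairs had an adjusted p of 0.0709 there, so the 0 calls are set by the resolution of this test.

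For Nfe2l2 the unspliced share was lower in Cell Suspension than in both other sample types. It fell between Liver, with 81.3% ± 3.59, and Cell Suspension, with 63.0% ± 10.3, and stood at 82.6% ± 2.40 in Primary Hepatocytes (SD, n = 8). Cell Suspension differed from Liver (exact permutation test, adjusted p = 0.00164) and from Primary Hepatocytes (exact permutation test, adjusted p = 0.00245). The median gene was 4.78 percentage points lower in Cell Suspension than in Liver, and Nfe2l2 was 18.4 points lower. In unscaled CPM, spliced Nfe2l2 had a median of 30.7, 51.5 and 47.4 in Liver, Cell Suspension and Primary Hepatocytes. Unspliced Nfe2l2 was at 138.8, 85.1 and 234, also unscaled. All Nfe2l2 UMIs together had a median of 132 unscaled CPM in Cell Suspension hepatocyte nuclei, beside 172 in the empty barcodes of the same pools. The fits that follow were scaled by TMM. Counting spliced UMIs only, Nfe2l2 was called higher in Cell Suspension than in Liver (0.50, adjusted p = 0.0334) and lower in Primary Hepatocytes than in Cell Suspension (-0.57, adjusted p = 0.00512), and counting unspliced UMIs only, it was called higher in Primary Hepatocytes than in Cell Suspension (0.73, adjusted p = 0.00132). In these TMM-scaled fits the direction of Nfe2l2 between Cell Suspension and the others thus depended on which kind of RNA was counted. Against Primary Hepatocytes the scaling mattered as well. Unscaled, spliced Nfe2l2 had close means of 47.8 ± 16.7 CPM in Cell Suspension and 47.0 ± 10.4 in Primary Hepatocytes (SD, n = 8).

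For Hmox1 the unspliced share was highest in Cell Suspension. It was 64.8% ± 4.73 in Liver (n = 7), 79.7% ± 4.53 in Cell Suspension (n = 7) and 65.5% ± 3.81 in Primary Hepatocytes (n = 8), as mean and SD. Suspension was higher than both (exact permutation test, adjusted p = 0.00253 and 0.00245), with all 7 of its samples above all others, while the share over all genes was lower in Cell Suspension than in Liver. The medians of unspliced Hmox1 were 2.05, 13.9 and 162 unscaled CPM in Liver, Cell Suspension and Primary Hepatocytes. Those of spliced Hmox1 were 1.16, 3.91 and 83.9, also unscaled. Hmox1 of Liver and Cell Suspension nuclei did not exceed the empty barcodes of its pools, as given above.

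Gclm and Srxn1 had a lower unspliced share in Cell Suspension than in Liver. Gclm went from 69.2% ± 2.75 in Liver to 54.9% ± 4.81 in Cell Suspension and 58.0% ± 4.34 in Primary Hepatocytes (SD, n = 8), and the differences from Liver gave an adjusted p of 0.00106 and 0.000683 in the exact permutation test. Srxn1 went from 55.2% ± 10.5 (n = 8) to 31.1% ± 11.1 (n = 6) and 45.1% ± 8.12 (n = 8), with an exact permutation adjusted p of 0.00672 for Cell Suspension against Liver and 0.0813 for Primary Hepatocytes against Cell Suspension.

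Slc7a11 UMIs of Liver hepatocyte nuclei were almost wholly unspliced: of 714 spliced and unspliced UMIs, 1 was spliced. The median level there was 5.81 unscaled CPM, beside 21.9 in the empty barcodes of the same pools. No Liver sample exceeded the empty barcodes of its own pool, and the part of free RNA in this share was not tested. The unspliced share of Liver nuclei was 99.8% ± 0.43, that of Cell Suspension 97.7% ± 2.69 and that of Primary Hepatocytes 89.7% ± 2.68 (SD, n = 8), and culture was lower than both (exact permutation test, adjusted p = 0.000683 and 0.00245). The gene spans 551089 bases in GENCODE M21, of which 13922 are exonic, and pseudogenes lie in it. Gsr went from 96.2% ± 1.01 in Liver to 93.7% ± 1.18 in Cell Suspension and 92.1% ± 1.501 in Primary Hepatocytes (SD, n = 8), both lower than Liver (exact permutation test, adjusted p = 0.00207 and 0.000683), and the median gene was 4.78 and 3.51 percentage points lower. Gclc was higher in Primary Hepatocytes than in Cell Suspension, 84.3% ± 1.70 beside 78.4% ± 3.95 (exact permutation test, n = 8, adjusted p = 0.0109). None of the tests of Txnrd1 (80.7 to 82.5% on average) or Nqo1 (76.1 to 83.3%) was called.

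**Figure D3:**
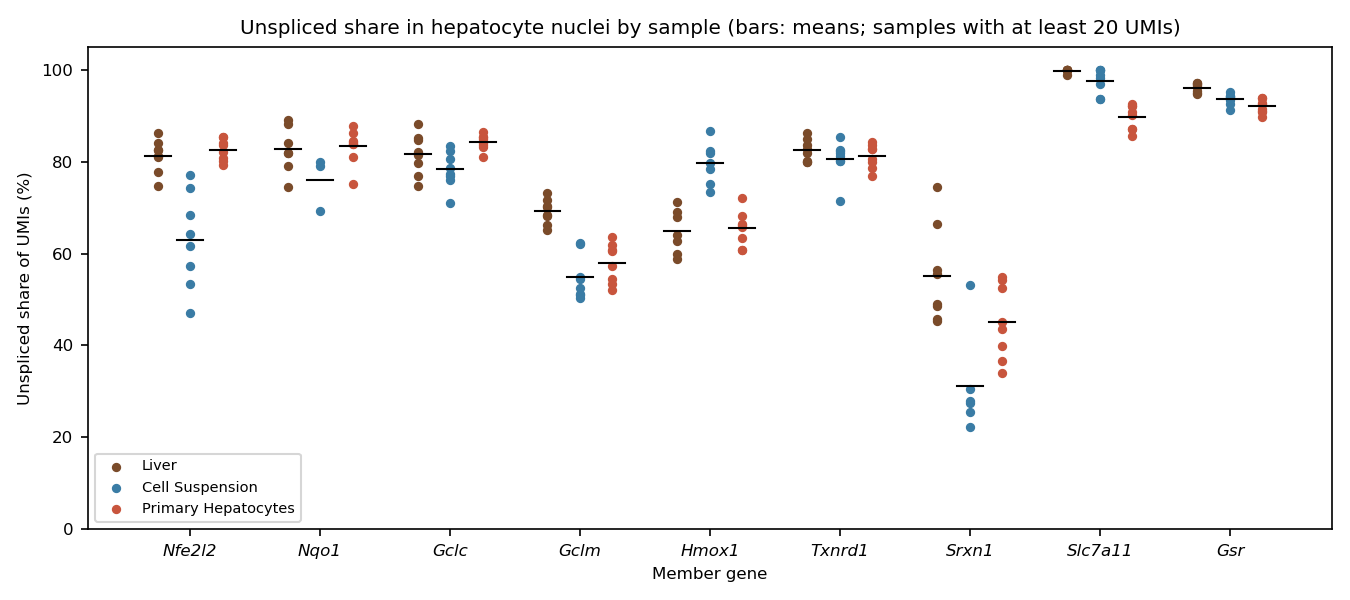
Unspliced UMIs as a percentage of spliced plus unspliced UMIs of each member in hepatocyte nuclei; points are samples with at least 20 such UMIs, coloured by sample type, and bars are means. Nfe2l2 dips in Cell Suspension and Hmox1 peaks there, while Slc7a11 and Gsr lie near the top of the axis.

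The liver lobule is zoned, with blood entering at the portal vein and leaving at the central vein, and detoxifying enzymes are known from the pericentral side. Hepatocyte nuclei of each Liver and Cell Suspension sample were ordered by a score over 20 zonation genes, none of them a member, and the most pericentral and the most periportal of 3 equal parts were compared within each sample. Differences are on the scale of log2(unscaled CPM + 1), as mean and SD over 8 mice. The test was the two-sided exact paired permutation test, whose smallest p with 8 pairs is 0.0078125. Over all 22194 genes tested in Liver and 19647 in Cell Suspension no gene passed an adjusted p of 0.05 in this test (0.00% called), so no member was called and the unadjusted exact p is given. A gene at the smallest p had an adjusted p of 0.0528 in Liver and 0.0734 in Cell Suspension, whatever the size of its difference. The 0.00% is thus set by the resolution of the test and gives no background share.

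In Liver, 5 members had an unadjusted exact p below 0.05 with the higher level in the pericentral part, beside 13.4% of all genes. The difference was 0.73 ± 0.27 for Nqo1, 0.35 ± 0.11 for Nfe2l2 and 0.20 ± 0.10 for Txnrd1 (8 of 8 mice each, n = 8, exact p = 0.0078125, adjusted p = 0.0528 over all genes). For Hmox1 it was 0.73 ± 0.50 and for Gclm 0.14 ± 0.13 (7 of 8 mice each, n = 8, exact p = 0.015625, adjusted p = 0.0805 over all genes). Whole Liver samples held 16 to 94 UMIs of Hmox1 and 12 to 55 of Nqo1 in hepatocyte nuclei, so the parts hold few of them. Gsr was at -0.09 ± 0.13 (SD, n = 8, exact p = 0.0781), with 1 of 8 mice higher in the pericentral part.

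In Cell Suspension 4 members had an unadjusted exact p below 0.05 with the higher level in the pericentral part, beside 10.6% of all genes. Hmox1 was at 0.77 ± 0.64 (SD, n = 8, 7 of 8 mice, exact p = 0.015625, adjusted p = 0.106 over all genes) and Nfe2l2 and Txnrd1 at 0.60 ± 0.30 and 0.48 ± 0.12 (8 of 8 mice, n = 8, exact p = 0.0078125, adjusted p = 0.0734 over all genes). Gclm was at 0.14 ± 0.13 (SD, n = 8, 6 of 8 mice, exact p = 0.03125, adjusted p = 0.159 over all genes). In unscaled CPM the pericentral and periportal parts of Cell Suspension held Txnrd1 at 171 ± 27.3 and 122 ± 16.5 and Hmox1 at 31.2 ± 22.6 and 18.6 ± 13.8 (SD, n = 8). The same parts of Liver held Txnrd1 at 129 ± 12.7 and 112 ± 8.21 and Hmox1 at 4.35 ± 2.13 and 2.17 ± 1.02 (SD, n = 8). The lowest Hmox1 level in the empty barcodes of any pool was 10.2 unscaled CPM, above both Liver means. The median nucleus held 7962 UMIs in the pericentral and 7654 in the periportal part of Liver, and 3415 and 4054 in Cell Suspension. The parts are ranges of a score and not cell types.

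**Figure D4:**
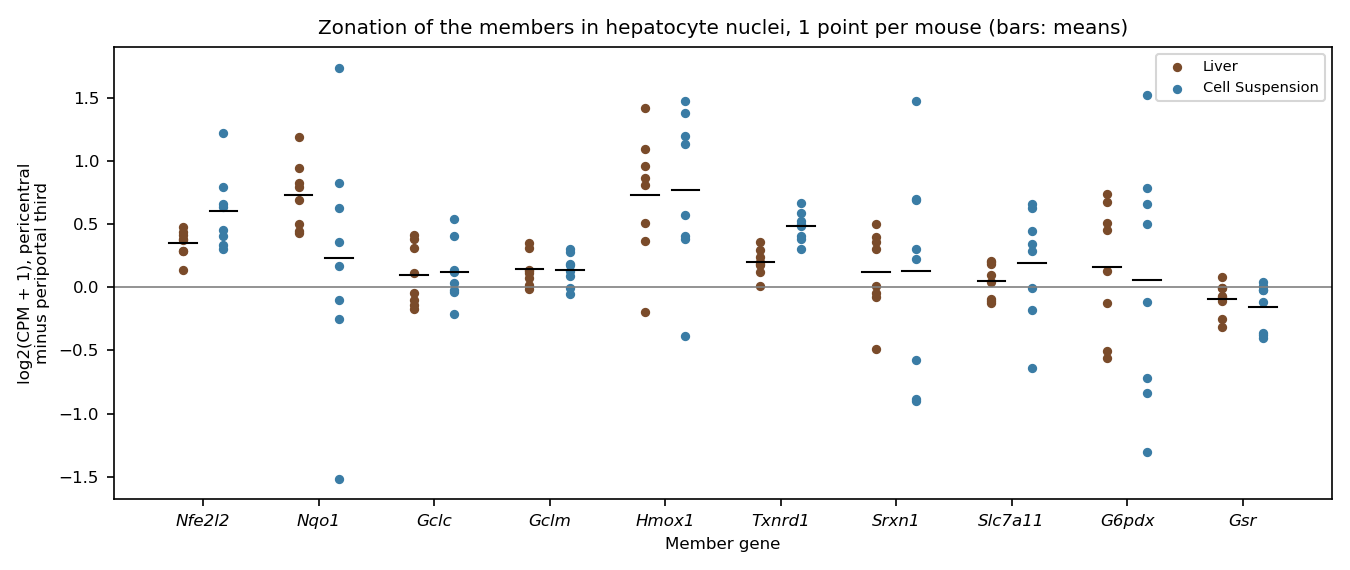
Difference between the most pericentral and the most periportal part of hepatocyte nuclei, in log2(unscaled CPM + 1), for each member in Liver and Cell Suspension; points are mice (8 per sample type) and bars are means. For Nfe2l2 and Txnrd1 all points lie above 0 in both sample types, and those of Gsr lie mostly below 0.

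In Liver tissue the members were also compared between cell types within the same 8 mice. Hepatocyte nuclei exceeded endothelial nuclei in Nfe2l2, Gclc, Gclm, Txnrd1 and Gsr, by 0.58 to 1.68 in log2 fold change. Endothelial nuclei were higher in Nqo1 and, by a call at the threshold, in Slc7a11. In all, 7 members were called beside 47.0% of all genes. Nqo1 was at 1.37 CPM at the lowest, 3.29 at the median and 7.13 at the highest in hepatocyte nuclei and at 4.51, 7.26 and 12.2 in endothelial nuclei, a log2 fold change of -1.37 (SE 0.28, adjusted p = 3.0e-05) of hepatocytes against endothelium. Nfe2l2 was at 0.58 and not called with total UMIs alone (0.31, adjusted p = 0.0533). Slc7a11 was at -0.65 (SE 0.23, adjusted p = 0.0151) and was not called without any single one of mice 1 to 6 (adjusted p = 0.0534 to 0.227), with no filter on low counts (-0.51, adjusted p = 0.0582), without the mouse as a block (-0.60, adjusted p = 0.0525) or with unspliced UMIs only (-0.40, adjusted p = 0.152). Scaling between cell types moved these values together: the median member shifted by -0.13, -0.21 and -0.33 with RLE scaling, against endothelial, Kupffer and stellate nuclei, and by -0.26, -0.40 and -0.31 with total UMIs, while leaving out 1 mouse shifted it by 0.05 to 0.24, 0.09 to 0.34 and -0.04 to 0.14. The median of all genes moved from 0.03, 0.14 and 0.23 to -0.23, -0.25 and -0.08 with total UMIs.

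Kupffer cells, the resident macrophages that take up aged red blood cells, stood out in Hmox1. Its level was 1.05 CPM at the lowest, 3.94 at the median and 5.51 at the highest in hepatocyte nuclei and 18.9, 53.2 and 107 in Kupffer nuclei. The sets did not overlap, and the log2 fold change of hepatocytes against Kupffer cells was -3.80 (SE 0.24, adjusted p = 9.9e-22). Kupffer nuclei were also higher in G6pdx (-2.27, SE 0.42, adjusted p = 5.7e-06) and Gsr (-0.36, SE 0.13, adjusted p = 0.0198). The Gsr call was lost when any 1 of the 8 mice was left out (-0.06 to -0.21, adjusted p = 0.217 to 0.749), with no filter on low counts (-0.19, adjusted p = 0.297) and with unspliced UMIs only (-0.03, adjusted p = 0.892). Hepatocytes were higher in Nfe2l2, Nqo1, Gclc, Gclm and Txnrd1, by 0.32 to 2.28, so that 8 members were called beside 41.0% of genes. Of these, Txnrd1 was at 0.32 (SE 0.13, adjusted p = 0.0349) and not called with total UMIs alone (-0.096, adjusted p = 0.576), RLE (0.09, adjusted p = 0.592), DESeq2 (0.10, adjusted p = 0.471), edgeR's own expression filter (0.21, adjusted p = 0.0880) or no mouse block (0.30, adjusted p = 0.0631). Nfe2l2 was at 0.50 and not called with RLE scaling (0.27, adjusted p = 0.140), DESeq2 (0.29, adjusted p = 0.149) or total UMIs (0.09, adjusted p = 0.659), and Nqo1 was not called with DESeq2 (1.56, adjusted p = 0.0735) or total UMIs (1.92, adjusted p = 0.0619).

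Stellate cells, which store retinoids, had the highest median Slc7a11 of these 4 cell types in Liver, at 10.0 CPM at the lowest, 18.2 at the median and 32.6 at the highest beside 4.78, 6.80 and 10.3 in hepatocyte nuclei. The log2 fold change of hepatocytes against stellate cells was -1.53 (SE 0.25, adjusted p = 6.1e-07). Endothelial nuclei had 4.09, 13.6 and 15.8 CPM of Slc7a11 and overlapped stellate nuclei. The other calls, Nfe2l2, Gclc, Gclm, Txnrd1 and Gsr, were higher in hepatocytes, by 1.42 to 2.22, making 6 members beside 41.0% of genes. Gclc, Gclm, Txnrd1 and Gsr of endothelial and stellate nuclei are read against free RNA, since in no endothelial or stellate Liver sample did these 4 genes exceed the empty barcodes of its pool, whereas Kupffer Hmox1 exceeded them in 8 of 8 samples, endothelial Nqo1 in 8 and stellate Slc7a11 in 5. Endothelial Slc7a11 exceeded them in 0 of 8 samples, with a median of 13.7 unscaled CPM beside 21.9 in the empty barcodes. In Kupffer nuclei of Liver, Gclc and Nqo1 exceeded them in 0 of 8 samples, Gclm in 1 and Nfe2l2 in 4, and stellate Nfe2l2 did in 1.

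**Figure D5:**
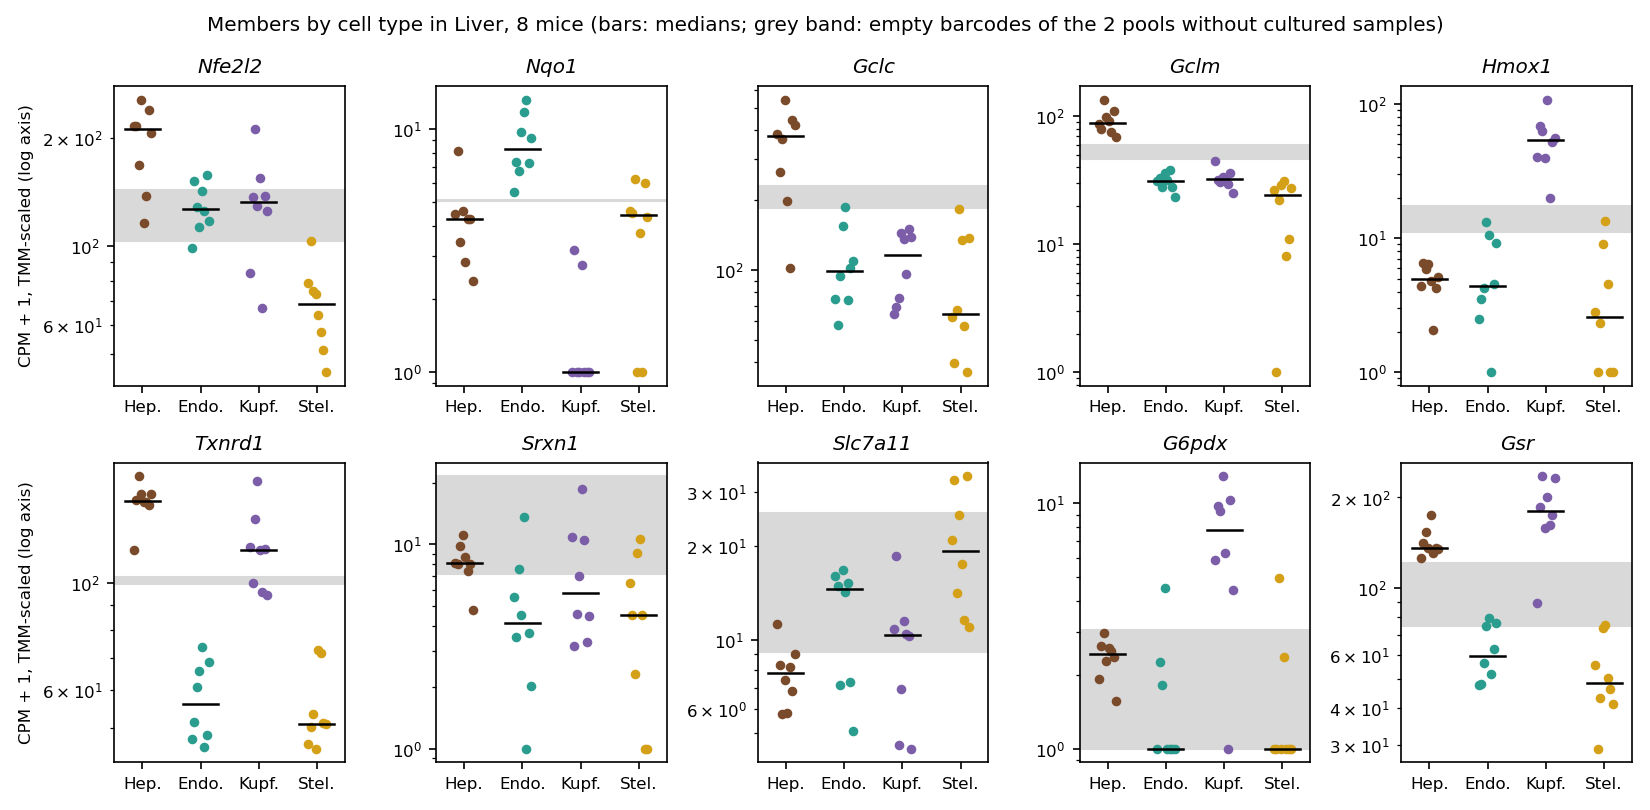
Level of each member in Liver hepatocyte, endothelial, Kupffer and stellate nuclei, in TMM-scaled CPM + 1 on a log axis, with points for the 8 mice, bars for their medians and a grey band for the unscaled CPM of empty barcodes in the 2 pools without cultured samples. The median of Hmox1 is highest in Kupffer nuclei, that of Slc7a11 in stellate nuclei and those of Gclc, Gclm and Txnrd1 in hepatocyte nuclei, and the mice overlap between cell types for Gclc, Txnrd1 and Slc7a11.

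Endothelial nuclei, 161 to 560 per Liver sample, 42 to 254 per Cell Suspension sample and 29 to 510 per Primary Hepatocytes sample, were compared in the same way. In Primary Hepatocytes against Liver 9 members were called higher beside 15.4% of genes, and against Cell Suspension 8 were called higher beside 9.33%. In either direction 33.8% and 20% of genes were called. Gclc was at 60.0 CPM at the lowest, 99.7 at the median and 193 at the highest in Liver and at 731, 976 and 1354 in Primary Hepatocytes, a log2 fold change of 3.17 (SE 0.27, adjusted p = 6.4e-13). Nqo1 was the member not called, at -0.20 (SE 0.38, adjusted p = 0.722). Nfe2l2 was called here, at 0.49 (SE 0.16, adjusted p = 0.0169), and was not called with the pool as a covariate (0.26, adjusted p = 0.471) or without mouse 1 (0.42, adjusted p = 0.0652). Against Cell Suspension it was at 0.53 (adjusted p = 0.0274) and not called with the pool (0.36, adjusted p = 0.187) or without mouse 5 or 6 (adjusted p = 0.0609 and 0.129). G6pdx was at 1.84 against Liver (SE 0.72, adjusted p = 0.0444) and was not called with the mouse as a block (1.88, adjusted p = 0.0678), with the pool as a covariate (1.89, adjusted p = 0.247) or without mouse 1, 3, 6, 7 or 8 (adjusted p = 0.0624 to 0.167).

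These endothelial values have to be read beside the RNA around the nuclei. In unscaled CPM, endothelial nuclei of Primary Hepatocytes held Gclc at 784 to 1479, and the empty barcodes of the same pools held 406 to 2484. Gclc exceeded the own pool's empty barcodes in 1 of 8 samples, Gclm in 0, Hmox1, Txnrd1 and Gsr in 1, Srxn1 in 3, Nfe2l2 and Nqo1 in 4 and Slc7a11 and G6pdx in 5. The 8 hepatocyte markers in endothelial nuclei stood at a median of 65.0% of their level in hepatocyte nuclei of the same sample in culture and at 21.6% in Liver, while Gclc stood at 35.4% and Hmox1 at 29.7% in culture. The marker level in endothelial nuclei was alike, with a median of 2963 unscaled CPM in culture and 2914 in Liver. That in hepatocyte nuclei differed, at 3805 and 13504, so the percentages differ through the hepatocyte nuclei. Endothelial markers summed to 5423 to 8994 unscaled CPM in the cultured and 11691 to 15263 unscaled CPM in the Liver endothelial nuclei. The part of hepatocyte RNA in the endothelial changes was not tested.

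Whether hepatocyte and endothelial nuclei of the same samples changed by different amounts was tested directly. Against Liver, 4 members rose more in hepatocyte than in endothelial nuclei of Primary Hepatocytes, beside 13.5% of genes called in that direction and 25.1% in either. The log2 differences were 2.27 for Nqo1 (SE 0.42, adjusted p = 5.5e-06), 2.07 for Hmox1 (SE 0.35, adjusted p = 5.8e-07), 1.84 for Slc7a11 (SE 0.30, adjusted p = 2.2e-07) and 0.82 for Srxn1 (SE 0.32, adjusted p = 0.0476). The Srxn1 difference was not called without mouse 1, 3, 5, 6, 7 or 8 (0.38 without mouse 5, adjusted p = 0.583). Gclc differed by -0.07 (SE 0.22, adjusted p = 0.915) and Nfe2l2 by -0.06 (SE 0.20, adjusted p = 0.910).

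In Cell Suspension against Liver, endothelial nuclei had 2 members called, Gclc at 1.12 (SE 0.27, adjusted p = 0.00698) and Hmox1 at 1.74 (SE 0.42, adjusted p = 0.00774), both higher, beside 2.03% of genes called higher and 3.90% in either direction. With the pool as a covariate these were 0.21 (adjusted p = 0.703) and 0.77 (adjusted p = 0.404), and without mouse 1 neither was called (adjusted p = 0.143 and 0.128). Gclc in suspension endothelial nuclei exceeded the empty barcodes of its pool in 0 of 8 samples and Hmox1 in 1. The change differed from that of hepatocyte nuclei for Hmox1 (1.36, SE 0.40, adjusted p = 0.0428) and Gsr (-0.71, SE 0.21, adjusted p = 0.034), beside 2.46% of genes. Leaving out a single mouse left 0 or 1 of these calls.

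Kupffer and stellate nuclei were not tested in culture, where they numbered 77 and 192 in all. Stellate nuclei held Gclc at a median of 64.9 unscaled CPM in Liver and 892 in Primary Hepatocytes, where 2 of 8 samples exceeded the empty barcodes of their pool. Between Cell Suspension and Liver, 1 of 9 members tested was called in Kupffer nuclei, Gclc at 1.02 (SE 0.27, adjusted p = 0.0439), beside 1.08% of genes called higher and 1.30% in either direction, and Nqo1 was too sparse to test. Without any single one of mice 1, 2, 3 and 5 no member was called. Gclc was not called with DESeq2 either (1.13, adjusted p = 0.0530), and it exceeded the empty barcodes of its pool in 0 of 8 Liver and 0 of 8 Cell Suspension Kupffer samples, with a suspension median of 246 unscaled CPM beside 720 in the empty barcodes. Hmox1, already high in these cells, was at 24.8 CPM at the lowest, 63.2 at the median and 120 at the highest in Liver and at 0, 121 and 193 in Cell Suspension (log2 fold change 0.95, SE 0.27, adjusted p = 0.0673), and with the mouse as a block it was called (0.98, adjusted p = 0.034). In stellate nuclei edgeR called 0 of 9 members, beside 3.19% of genes. DESeq2 called 0 as well. Without mouse 5, Hmox1 was called (3.07, adjusted p = 0.0216).

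The wider pathway was described from 8 lists of 85 genes in hepatocyte nuclei, Primary Hepatocytes against Liver. Over all genes 27.4% were called higher and 26.3% lower, which is the background for each list. Among 13 regulators, 6 were higher and 4 lower. The small Maf gene Maff, whose protein can pair with Nrf2 or with the repressor Bach1, went from 8.20 ± 5.56 CPM in Liver to 113 ± 59.1 in Cell Suspension and 67.6 ± 12.4 in Primary Hepatocytes (SD, n = 8), so its peak was in suspension (log2 fold change 3.83 against Liver, SE 0.33, adjusted p = 3.9e-10). Mafk rose 2.33-fold in Cell Suspension and 2.59-fold in Primary Hepatocytes against Liver. Bach1, which represses Hmox1, went from 130 ± 41.3 to 293 ± 106.9 and 207 ± 42.0 CPM (SD, n = 8), higher than Liver in both (adjusted p = 5.9e-05 and 0.00543).

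In culture the RNA of the other regulators moved both ways. Keap1, the inhibitor, rose 1.49-fold (adjusted p = 7.6e-05), Sqstm1, the autophagy adaptor p62 that binds Keap1, 2.58-fold (adjusted p = 1.8e-06) and the related factor Nfe2l3 5.29-fold (adjusted p = 6.2e-11) against Liver. Bach2 fell by 1.21 and Btrc, a ubiquitin ligase adaptor for Nrf2, by 1.19 on the log2 scale. Nfe2l1 and Gsk3b fell by 0.38 and 0.37, and Cul3, Rbx1 and Mafg were not called against Liver.

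The targets and neighbours outside the 10 members moved both ways. Among 14 genes of glutathione synthesis, reduction and peroxidases, 8 were higher and 5 lower, with Slc3a2, the partner chain of Slc7a11, at 1.76 (SE 0.12) and Glrx at 1.43 (SE 0.22), and Mgst1 at -2.22 (SE 0.21). Of 10 glutathione transferases 5 were higher and 3 lower. Gstp2 was at 11.1 ± 14.4 CPM in Liver and 564 ± 157 in Primary Hepatocytes, and Gsta3 at 805 ± 363 and 89.5 ± 20.9 (SD, n = 8). Gsta1 went from 0.28 ± 0.40 to 42.7 ± 10.2 CPM, and Gstp1 fell by 1.04 on the log2 scale (adjusted p = 0.000629), from 59.3 ± 27.3 to 28.7 ± 5.44 CPM (SD, n = 8). The Gsta and Gstp genes have near-identical copies, so reads may be split between them and these values are uncertain.

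Of 9 NADPH supply genes 3 were higher and 4 lower, beside 27.4% and 26.3% of all genes. Pgd, the step after G6pdx, rose 8.93-fold (log2 fold change 3.16, SE 0.17, adjusted p = 2.5e-16), while cytosolic Idh1 fell by 3.22 and mitochondrial Nnt by 2.30 on the log2 scale. In the thioredoxin system 4 of 14 genes were higher and 8 lower: Txn1 and Sesn2 rose 2.63-fold and 3.31-fold, and Txnip, an inhibitor of thioredoxin, went from 33.0 ± 10.1 CPM in Liver to 266 ± 55.5 in Cell Suspension and 9.23 ± 4.04 in Primary Hepatocytes (SD, n = 8). In heme and iron handling, 3 of 9 were higher and 3 lower, with the heme transporter Slc48a1 up 4.83-fold and ferritin heavy chain Fth1 2.89-fold. Alas1 and Fech of heme synthesis were down by 2.79 (SE 0.54) and 1.45 (SE 0.12) on the log2 scale. Alas1 varied widely between Liver samples, at 639 ± 700 CPM beside 92.3 ± 16.4 in Primary Hepatocytes (SD, n = 8).

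Among 12 detoxification and export genes 3 were higher and 4 lower, beside the same shares of all genes, including the efflux pump Abcc1 at 4.65 (SE 0.27, adjusted p = 2.9e-15) and the canalicular pump Abcc2 at -2.41 (SE 0.18, adjusted p = 4.3e-13). Antioxidant enzymes kept outside the pathway, 4 genes, had 0 higher and 3 lower, with catalase Cat down by 2.04 and superoxide dismutase Sod1 by 0.82 on the log2 scale.

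Genes with the profile most like each member were named by Pearson's r of log2(CPM + 1) over the 24 hepatocyte sums, among 8617 genes of at least 10 CPM. The points share libraries and fall into 3 sample types, so these are descriptions. Slc7a11 was followed closely by Arhgap22 and Abcc1 (r = 0.99 each), Srxn1 by Esd (0.99), 2410006H16Rik (0.99) and Ptpn23 (0.98), and Gsr by Aak1, Tpd52 and Ankfy1 (0.99 each). Hmox1 was followed by Ets2 and Saa2 (0.96 each), and Gclc by Tm4sf4 (0.98), Samd4 (0.97) and Pvr (0.96). Txnrd1 was nearest to Cep170, Spidr and Ubap2 (0.97 each). The sparse or flatter members had lower values: G6pdx with Ano10 (0.94), Nqo1 with Dgkd (0.93), Gclm with Ube2e2 (0.91) and Nfe2l2 with Srgap2 (0.89).

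Differences between mice were compared across sample types for each member, in 30 relations over 8 mice. Nfe2l2 in Liver and Cell Suspension of the same mouse had Pearson's r of 0.89 (permutation p = 0.00372, adjusted p = 0.0844) and Spearman's rho of 0.90 (permutation p = 0.00456), with r = 0.70 without the 2 mice farthest from the median. Gclc had r = 0.90 (exact permutation p = 0.00563, adjusted p = 0.0844) and rho = 0.60 (exact permutation p = 0.132), and r was 0.35 without 2 mice, so the relation rested on those mice. Between Liver and Primary Hepatocytes Gclc had r = -0.82 (exact permutation p = 0.00885, adjusted p = 0.0875) and rho = -0.69 (exact permutation p = 0.0694), and between Cell Suspension and Primary Hepatocytes r = -0.81 (exact permutation p = 0.0146, adjusted p = 0.0875) and rho = -0.71 (exact permutation p = 0.0576). Without 2 mice these r were -0.35 and -0.20, so they rested on those mice too. Mouse and pool are also tied in these relations. Mouse 6 had its Liver and Cell Suspension samples in pool 6 and its cultured sample in pool 3. The empty barcodes of these pools held Gclc at 185 and 2484 unscaled CPM, and the part of the pool was not tested. None of the 30 relations had an adjusted p below 0.05.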

How the data were processed

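Nuclei of 24 hashtagged samples were sequenced in 6 pools by the 10x 3′ method. For quantification the authors used Salmon, through Alevin and alevin-fry, on a custom GRCm38 reference of spliced and unspliced transcripts; the deposited values are raw UMI counts per gene, spliced, unspliced and ambiguous kept apart; the strand setting is not given in the sources used here. The authors had removed doublets and untagged nuclei before depositing the table of nuclei, whose sample, cluster and cell type columns were used and 12 columns were not. The mitochondrial fraction in that deposited table was not tested.

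Here the 3 kinds of count were summed per sample and cell type (at least 10 nuclei) and tested with edgeR 4.0.16 (quasi-likelihood, TMM, at least 10 counts over the samples of a fit, no covariate, Benjamini-Hochberg over all genes, threshold 0.05) in R 4.3.3; cell types in Liver were fitted with the mouse as a block. DESeq2 1.42.0, other scalings and filters, the replicate block, the pool as a covariate, spliced or unspliced UMIs only and leaving out each mouse were alternatives. Shares and zonation used exact permutation tests with a pseudocount of 1 CPM for zonation; their p-values were first adjusted over the members alone and, in a step added after seeing the data, over all genes, which are the values given. The scripts were tested on simulated data. Hepatocyte sums held 2104087 to 29023569 UMIs, which limits the sparse genes most.

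The members and lists were chosen with earlier results of these data known. The rule for named genes took all members, all regulators, up to 2 genes called higher and 2 called lower with the largest change in hepatocyte nuclei (Primary Hepatocytes against Liver) from each other list, above a minimum level, and the 3 genes most correlated with each member; some genes that this rule takes are not reported here. The labels give the mouse of each sample, so samples are paired. Deviations of the same mouse correlated at 0.34 to 0.85 between Cell Suspension and Liver (above 0.1 in 8 of 8 mice), at -0.05 to 0.13 between Primary Hepatocytes and Liver and at -0.17 to 0.13 between Primary Hepatocytes and Cell Suspension, over 8611 genes.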

Additional observations from a re-analysis of the deposited data

Results flagged for a closer look

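Among 96 groups of samples tested for a value standing apart from the rest, 8 had one, and chance gives about 1 in 20 groups. In hepatocyte nuclei of Liver, Nqo1 of mouse 2 was at 6.41 CPM beside 1.24 to 3.34 in the other mice, and Txnrd1 of mouse 1 was at 104 CPM beside 133 to 158. In endothelial nuclei of Liver, G6pdx of mouse 4 was at 3.70 CPM beside 0 to 1.33. In Kupffer nuclei of Liver, Gclm of mouse 1 was at 52.8 CPM beside 29.9 to 40.5 and Txnrd1 of mouse 4 at 198 beside 113 to 146. In Kupffer nuclei of Cell Suspension, Gclc of mouse 1 was at 566 CPM beside 66.6 to 302, Slc7a11 of mouse 8 at 75.2 beside 5.29 to 33.3 and G6pdx of mouse 7 at 27.3 beside 0 to 12.5. Over all genes, the endothelial Liver sum of mouse 4 held 536239 UMIs. The Kupffer suspension sums of mice 7 and 8 held 117877 and 81970. The flagged G6pdx and Slc7a11 values thus rest on few UMIs.

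The change from Liver differed between hepatocyte and endothelial nuclei, by edgeR's test of the difference itself, for 4 members in Primary Hepatocytes, beside 25.1% of all genes in either direction, and 2 in Cell Suspension, beside 2.46%. In Primary Hepatocytes the log2 difference was 2.27 for Nqo1, 2.07 for Hmox1, 1.84 for Slc7a11 and 0.82 for Srxn1, which was not called without any single one of mice 1, 3, 5, 6, 7 and 8, nor with RLE, DESeq2, edgeR's own expression filter, no filter on low counts or unspliced UMIs only. In Cell Suspension it was 1.36 for Hmox1 and -0.71 for Gsr, and leaving out any 1 mouse left 0 or 1 of these 2 calls.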

How the results depend on the processing

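The 9 members called in each hepatocyte comparison with Primary Hepatocytes numbered 9 or 10 when any 1 mouse was left out, and the count for Cell Suspension against Liver 1 to 2. That last count of 2 became 1 with no filter on low counts and 1 in nuclei at or above the median demultiplexing margin, and it became 3 with RLE, DESeq2, edgeR's own expression filter, spliced UMIs only and unspliced UMIs only, each time with Slc7a11 called. In endothelial nuclei 7 to 9, 7 to 8 and 0 to 3 members were called without 1 mouse; the 2 of Cell Suspension against Liver became 4 with relative log expression (RLE) scaling, 4 with DESeq2, 4 with edgeR's own expression filter, 0 with the pool as a covariate and 0 with spliced UMIs only. The 1 Kupffer call became 3 with RLE, 2 with total UMIs, 2 with DESeq2, 3 with the expression filter, 2 with no filter, 2 with the replicate block, 0 with spliced UMIs and 0 to 2 without 1 mouse. The stellate count was 0 to 1 without 1 mouse. Hepatocytes against Kupffer cells, 8 calls, gave 5 with total UMIs, 5 with DESeq2, 5 with the expression filter and 7 to 8 without 1 mouse. The 2 differences between hepatocyte and endothelial change in Cell Suspension became 1 with RLE, 1 with total UMIs, 1 with DESeq2, 0 with spliced UMIs, 0 with unspliced UMIs and 0 to 1 without 1 mouse. Of 20 zonation tests 8 passed 0.05 when adjusted over these tests alone, 0 to 7 without 1 mouse and 0 when adjusted over all genes, and the unspliced share of Srxn1 in Primary Hepatocytes against Cell Suspension also passed only in the first way (0.0477 beside 0.0813). The pairing of the shares by mouse was chosen after seeing the data. The causes were not tested. With spliced UMIs only, Nfe2l2 reversed to -0.57 in Primary Hepatocytes against Cell Suspension and to 0.50 in Cell Suspension against Liver, and with total UMIs Txnrd1 reversed to -0.10 in hepatocytes against Kupffer cells.

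With the replicate block, 9, 10 and 2 members were called in hepatocyte and 8, 8 and 2 in endothelial nuclei. Without it, the Liver cell type counts were 6, 7 and 6. Leaving out cluster 8 was chosen after seeing the data. The share of calls that were higher moved with RLE and with total UMIs from 45.6% to 57.0% and 55.8% (endothelial, Primary Hepatocytes against Liver), from 46.7% to 51.4% and 63.8% (against Cell Suspension), from 52.1% to 69.0% and 42.2% (Cell Suspension against Liver), and in stellate nuclei from 28.3% to 86.3% and 78.5%. In Kupffer nuclei it moved from 82.8% to 94.9% with RLE, and in the Liver cell types from 51.9%, 54.1% and 58.2% to 40.0%, 37.0% and 43.5% with total UMIs. For the differences between hepatocyte and endothelial change it moved from 53.7% and 74.1% to 69.6% and 56.1% with total UMIs. Depth limits Nqo1 and G6pdx most, and UMI counts cover counting error only.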
